A study of Phaseolus vulgaris with 12 samples.

Results

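UDP-glycosyltransferases move a sugar from a nucleotide carrier to another molecule, and 50 genes of this kind were followed in common bean leaves. The members were the loci whose gene description names a UDP-glycosyltransferase, a UDP-glucosyltransferase or a UDP-glucose glucosyltransferase, names no flavonoid, flavonol or anthocyanin, and whose level was at least 1 FPKM in 3 or more of the 12 libraries. FPKM is the fragment number scaled by transcript length and by the mapped fragments of the library. The description rule matched 153 of the 22542 loci in the table, and 50 of these passed the level filter. No match was lost through the 3 excluded words, since 0 of the 153 descriptions held one. Membership used the level but no difference between groups.

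True leaves of the Phaseolus vulgaris varieties 093 and 120 were sequenced as RNA; the submitters describe 093 as cold-sensitive and 120 as cold-tolerant. Cold plants spent 3 days at 4 °C inside an incubator and control plants stayed on a culture rack, both under 12 h of daily light, so cold and place cannot be told apart. There were 4 groups with 3 libraries each: the control and the cold plants of 093, and those of 120. Each variety was grown in 3 pots per treatment, and whether a library stands for its own pot or plant is not stated in the labels, which name no transgene or mutation. The p-values are therefore relative to the variation among libraries, and this may be only technical. In such whole-leaf samples, fewer cells of a type and less RNA per cell cannot be told apart.

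In plants, most UDP-glycosyltransferases belong to a large family that attaches glucose to small molecules such as hormones, phenylpropanoids, terpenoids and sterols. The sugar usually makes the acceptor more soluble and less active, and glucosylated hormones and defence compounds are often stored in the vacuole, from where beta-glucosidases can free them. The numbers in names such as 74F2 follow the family system, in which the number gives the family and the letter the subfamily. The words UDP-Glycosyltransferase superfamily in a description also take in enzymes of starch, trehalose, galactolipid and protein glycan synthesis, and some of these use another nucleotide sugar. Of the 50 members, 37 carried the gene ontology term for flavonoid synthesis that the table gives to the small-molecule type, and 13 did not. Only 17 members carried a family number in the description, while 33 were described as superfamily members without one. Roles given below for numbered families come from the Arabidopsis enzymes of those names and were not measured in bean.

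Between 12091 and 13357 loci reached 1 FPKM in a library. Estimated from the spacing of the lowest values, the deepest library had 1.39 times the depth of the shallowest. That estimate is rough. For the deepest library, 6.19% of the loci compared gave the ratio used, and 4.47% gave a second ratio of 2.77. True leaf was the labelled tissue. The 20 loci matched as leaf mesophyll markers, Rubisco small subunits and chlorophyll-binding proteins, summed to 7693 to 11522 FPKM in 093 control and 5466 to 7831 FPKM in 120 control, so defining leaf transcripts were abundant. Under cold their sum was 1315 to 1605 FPKM in 093 and 1245 to 1459 FPKM in 120, and 14 of them fell in each variety. Markers of seed storage and cotyledon summed to 20.1 to 257 FPKM in 093 control, 96.2 to 137 in 093 cold, 12.8 to 18.8 in 120 control and 143 to 236 in 120 cold, and of 10 tested 5 rose and 1 fell in 093 and 7 rose in 120. Guard cell markers went from a sum of 9.57 to 14.4 up to 21.6 to 23.2 FPKM in 093, and from 12.3 to 15.8 up to 77.5 to 91.4 FPKM in 120. Of 2 tested, 1 rose in each variety. Phloem markers summed to 101 to 125 FPKM in 093 control against 224 to 232 in 093 cold. In 120 their sum was 74.3 to 99.3 FPKM in control against 141 to 298 under cold. Single phloem markers went both ways. With 17 tested, rises numbered 6 in 093 and 5 in 120, beside 3 falls in each variety. Epidermis and wax markers were at 51.5 to 63.6 and 58.2 to 88.0 FPKM in the controls of 093 and 120, and at 19.8 to 21.7 and 17.5 to 30.0 FPKM under cold. Of 4 tested, 1 rose and 2 fell in 093, and 2 fell in 120. None of the markers was at 0 in all libraries. The part of these shifts in the results below was not tested.

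One library stood apart for several members. Control library 2 of 120 held the highest of the 12 values for 11 of the 50 members. For 4 of them (Phvul.001G182500, Phvul.004G030400, Phvul.006G205700 and Phvul.008G034300) it was more than 3 times above the next library of its group. Results that rest on it are given with and without it.

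Levels differed widely among the members. Phvul.010G119300, annotated as a starch synthase of the starch grain, was the highest by mean FPKM over all libraries. Next came Phvul.001G195600, a digalactosyldiacylglycerol synthase by annotation, Phvul.004G024500, the locus MSTRG.7273, Phvul.002G139001 and Phvul.010G013800. The members' FPKM summed to 451 ± 80.9 in 093 control and 318 ± 11.6 in 093 cold (mean ± SD, n = 3 libraries per group throughout). In 120 the sum was 787 ± 71.7 without cold and 309 ± 29.6 under cold. Phvul.010G119300 made up much of this, and without it the sums were 257 ± 11.7, 239.5 ± 10.3, 404 ± 109 and 215 ± 18.5 FPKM in the same order. The high 120 control spread came from library 2, at 530.3 FPKM against 346 and 337 in the others.

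Of the 103 matches that were not members, 88 never reached 1 FPKM and 15 reached it in 1 or 2 libraries. Among the numbered subfamilies, 85A had 22 matches of which 5 were members, 73B had 17 with 2 members, and 74F had 6 with 4 members. Just inside the filter, the third-highest library was at 1.10 FPKM for Phvul.008G090700, described as 73B3, and at 1.11 FPKM for Phvul.008G140500. Just outside it, that value was 0.922 FPKM for Phvul.008G056500 and 0.917 FPKM for Phvul.002G325300. For 17 members the filter was met only with the help of the group in which their mean was highest, which was 093 control for 4, 093 cold for 4, 120 control for 6 and 120 cold for 3. Such a member needed at least 1 library of that group to pass, so its level there was part of its selection. That group need not be clearly higher. Phvul.010G113266 passed with 1 library each of 093 control, 120 control and 120 cold, at 1.30, 1.41 and 1.22 FPKM. Of the 50 members, 29 lay in runs of close gene names among the matched loci. Of these, 16 were in 7 runs that held at least 2 members each. Among all members, 5 were entries joining several gene names, so the split of reads within such runs is uncertain.

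**Figure D1:**
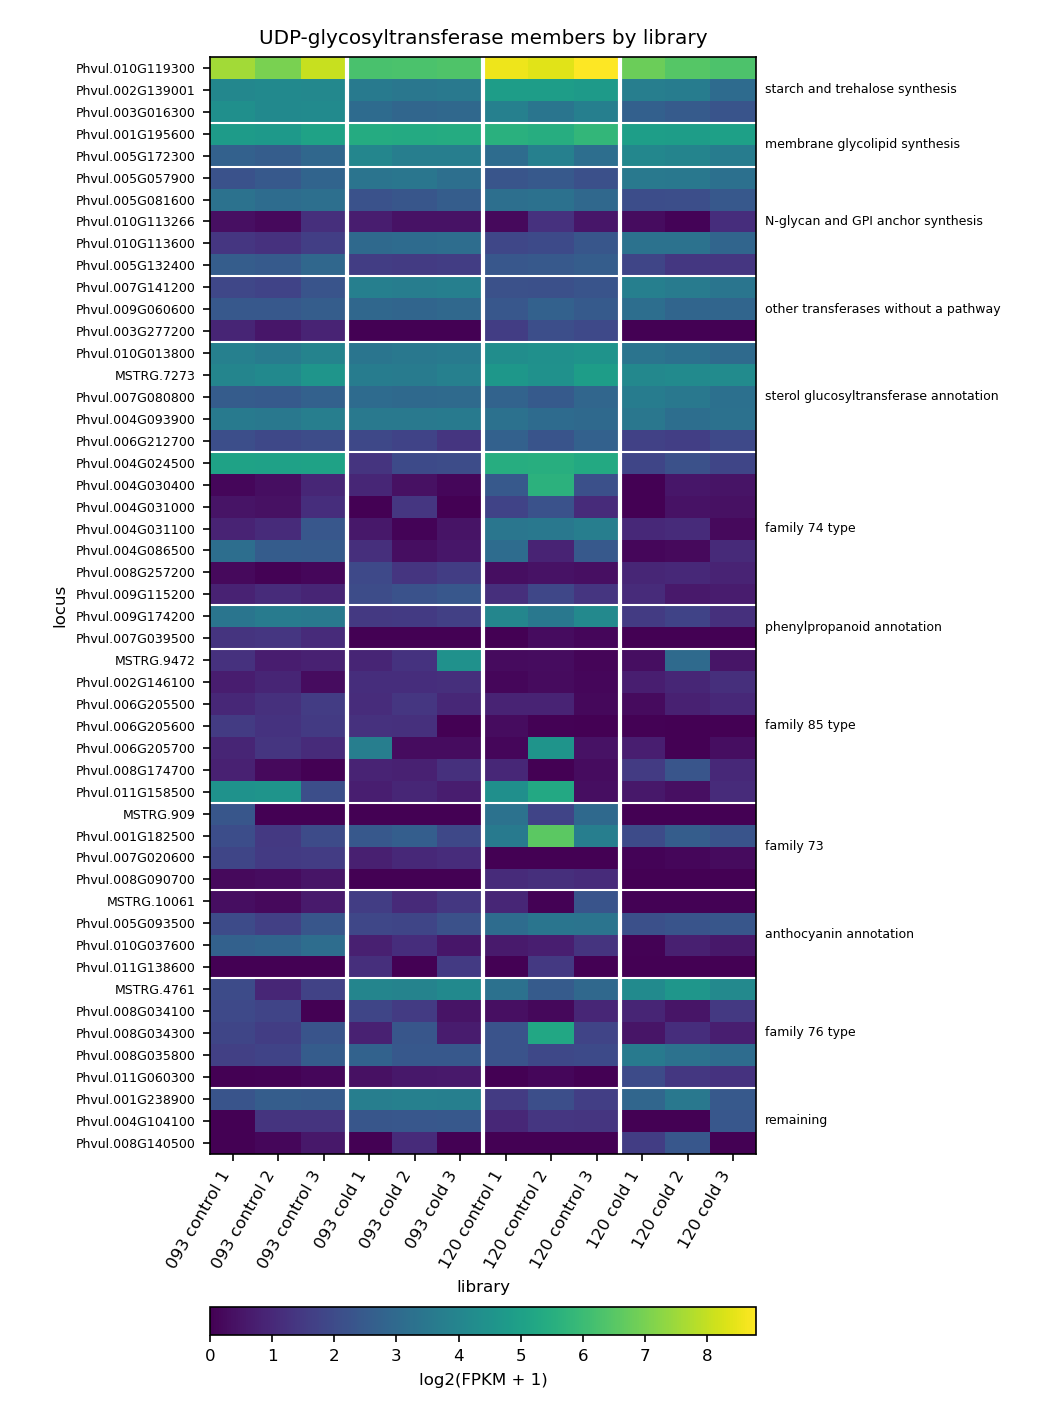
Level of the 50 members (rows, grouped by annotated role) in the 12 libraries (columns), as log2(FPKM + 1) by colour. Phvul.010G119300 is the brightest row, from 75.1 FPKM in a 093 cold library to 440.2 FPKM in a 120 control library, and most other members sit at the dark end.

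For each comparison, log2(FPKM + 1) was fitted with limma over the 14716 loci that passed the level filter. A locus was called, and is said to have risen or fallen, at an adjusted p under 0.05 with a log2 change of at least 1 in either direction. With cold, 8 of the 50 members rose and 10 fell in 093, against 33.0% of all tested loci called higher and 15.2% called lower (48.2% in either direction). In 120, 9 members rose and 18 fell, against 27.8% and 18.6% of all tested loci (46.4% in either direction). The members' share of calls was 36% in 093 and 54% in 120. In each variety 35 of the 50 members (70%) had no overlap between control and cold libraries, against 78.3% of all tested loci in 093 and 72.8% in 120. All cold libraries were above the controls for 16 members in 093 (50.7% of all tested loci) and 14 in 120 (42.2%), and below them for 19 in 093 (27.6%) and 21 in 120 (30.6%). The median log2 change of the members was -0.06 in 093 and -0.48 in 120, beside 0.43 and 0.18 over all tested loci. The median in 093 was -0.32 with median-ratio scaling and -0.46 with quantile normalization, and that in 120 was -0.61 and -0.71. The 33 members that did not depend on 1 group for the filter included 7 that rose and 8 that fell in 093, while in 120 the numbers were 6 and 13.

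The number of rises depended on the scaling of the libraries. Median-ratio scaling moved the median of all loci from 0.43 to 0.01 in 093 and from 0.18 to 0.02 in 120. It left 4 rises and 13 falls among the members in 093, and 7 rises and 20 falls in 120. Quantile normalization left 4 rises and 14 falls in 093, and 5 rises and 21 falls in 120. Scaling turned 25 of the 250 member directions over the 5 comparisons, and 0 of these were called as deposited.

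**Figure D2:**
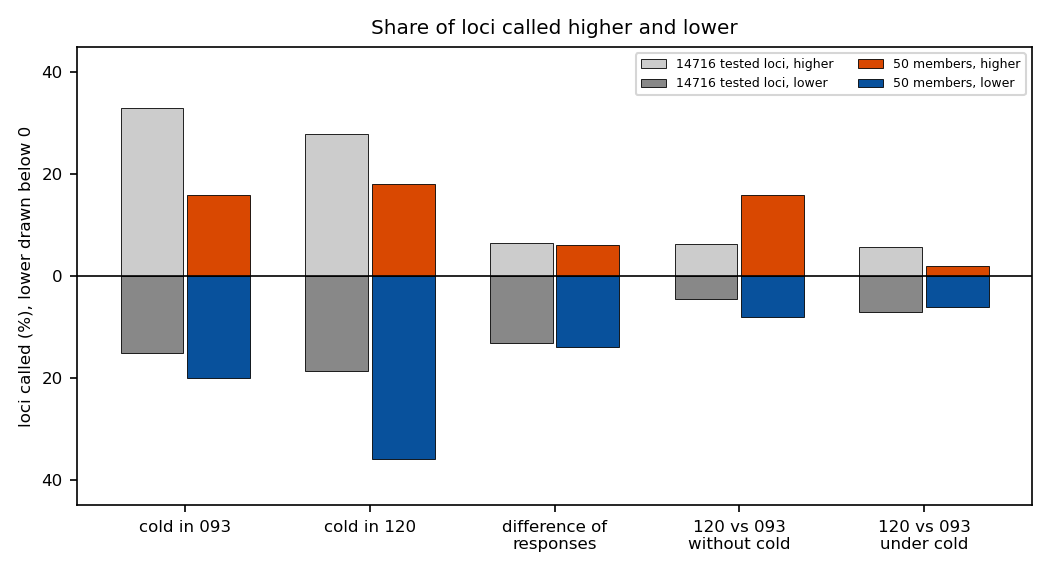
Percent of loci called higher (above 0) and lower (below 0) in the 5 comparisons, for the 14716 tested loci (grey) and the 50 members (coloured). For cold in 120 the lower bar of the members reaches 36% against 18.6% for all tested loci, and for cold in 093 the higher bar is 16% against 33.0%.

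The cold comparisons of the varieties share no library. In both varieties 4 members rose (8%, beside 22.4% of all tested loci: MSTRG.4761, Phvul.001G238900, Phvul.007G141200 and Phvul.010G113600), and 7 fell (14%, beside 11.1% of all tested loci: Phvul.003G016300, Phvul.004G024500, Phvul.004G031100, Phvul.004G086500, Phvul.009G174200, Phvul.010G119300 and Phvul.011G158500). Another 7 members were called in 093 alone and 16 in 120 alone, which by itself does not show a difference between the varieties. No member rose in one variety and fell in the other by these calls, and 16 members were called in neither. Each member with a call is described below by its annotated role. Counts within a role are of few members, and no role was tested as a set. They stand beside 33.0% of all tested loci called higher and 15.2% lower in 093, and 27.8% and 18.6% in 120.

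**Figure D3:**
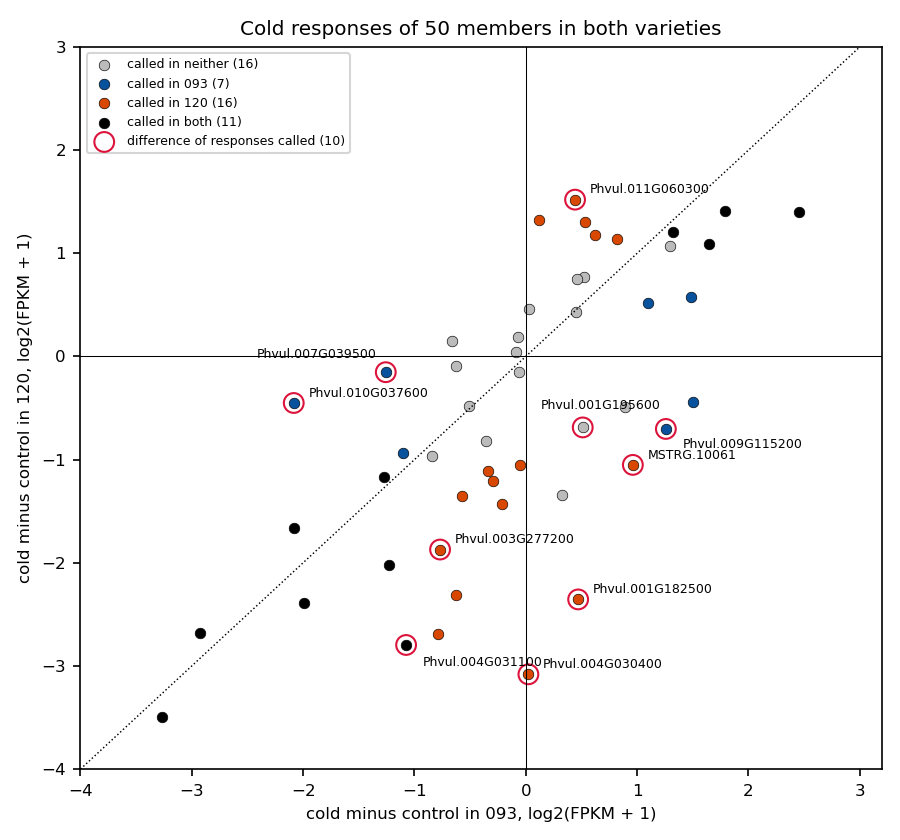
Cold response of each of the 50 members in 093 (horizontal axis) and 120 (vertical axis), as differences of log2(FPKM + 1); the dotted line marks equal responses. Colours give the variety in which a member was called, and the 10 ringed members had a called difference of responses. The lowest point on both axes, Phvul.004G024500, is at -3.27 in 093 and -3.49 in 120.

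The 3 members of starch and trehalose synthesis were lower under cold, and all 3 fell in 120. The starch synthase Phvul.010G119300 belongs by annotation to the starch grain, where this enzyme type makes amylose. It was at 189, 128 and 266 FPKM in 093 control libraries 1 to 3, and at 75.1, 78.4 and 82.0 FPKM in 093 cold. In 120 it was at 374, 333 and 440.2 FPKM without cold and at 112, 88.5 and 80.5 FPKM under cold. The control and cold libraries did not overlap in either variety. The log2 change was -1.23 in 093 (SE 0.23, adjusted p = 0.000471) and -2.02 in 120 (SE 0.23, adjusted p = 9.22e-06). Without 093 control library 3 the change in 093 was -0.97, short of the fold required.

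Phvul.002G139001, annotated as a further starch synthase of the chloroplast, was at 15.8, 17.0 and 16.4 FPKM in 093 control and 11.4, 10.3 and 10.6 in 093 cold, a log2 change of -0.57 that was too small for a call. In 120 it fell from 29.0, 28.7 and 26.5 to 12.6, 11.8 and 7.40 FPKM (log2 change -1.36, adjusted p = 1.24e-05). Phvul.003G016300 is described as a trehalose-phosphatase family protein, a group in which many members regulate sugar signalling rather than make trehalose. It fell from 19.7, 17.0 and 17.3 to 7.45, 6.42 and 6.79 FPKM in 093. In 120 it fell from 13.1, 9.72 and 12.9 to 5.45, 4.80 and 3.89 FPKM. Its log2 changes of -1.27 and -1.17 were alike in the 2 varieties (difference 0.10, SE 0.21).

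Of the 2 members annotated to membrane glycolipid synthesis, Phvul.005G172300 rose in 093. It stood at 5.68, 4.98 and 6.56 FPKM without cold and 15.2, 12.5 and 12.4 under cold (log2 change 1.09, adjusted p = 0.000284). In 120 it was at 7.70, 13.3 and 8.13 FPKM without cold and 15.6, 14.6 and 12.0 under cold, with overlapping libraries and a change of 0.52. The rise in 093 was 0.61 after median-ratio scaling and 0.67 after quantile normalization, both under the fold required. Its pathway entry is glycerolipid metabolism.

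Phvul.001G195600, whose annotation is that of a digalactosyldiacylglycerol synthase, the enzyme that makes a major galactolipid of thylakoid membranes, moved differently in the 2 varieties. It was at 27.3, 26.1 and 32.5 FPKM in 093 control and 41.8, 40.4 and 41.1 in 093 cold. In 120 it was at 47.0, 43.0 and 55.1 FPKM in control and 29.2, 28.5 and 30.8 under cold. All cold libraries of 093 were above their controls and all those of 120 below. The changes, 0.51 and -0.69, were too small for a call, but their difference of -1.20 was called (SE 0.17, adjusted p = 0.000451). The change in 093 was -0.01 after median-ratio scaling and close to 0 after quantile normalization. The difference then was -0.88 and -0.99, below the required fold, with adjusted p of 0.00101 and 0.000654.

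Of the 5 members annotated to protein N-glycan or membrane-anchor synthesis, 1 rose and 1 fell in 093, and 2 rose in 120. Both kinds of enzyme work at the endoplasmic reticulum, where they build the glycan that is transferred to proteins or the lipid anchor that holds proteins at the cell surface. Phvul.010G113600, a mannosyltransferase of N-glycan assembly by annotation, rose from 1.60, 1.39 and 2.12 to 7.00, 7.50 and 7.72 FPKM in 093 (log2 change 1.64, adjusted p = 5.98e-06). In 120 it rose from 2.62, 2.96 and 4.12 to 8.96, 8.85 and 6.21 FPKM (1.09, adjusted p = 0.000184). The groups did not overlap in either variety. The change in 120 dropped under the fold required without 120 control library 1, at 0.98, and with either scaling, at 0.91 and 0.83.

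Phvul.005G057900, a mannosyltransferase of an earlier step by annotation, rose in 120 from 3.97, 4.51 and 3.39 to 10.6, 10.4 and 8.54 FPKM (1.13, adjusted p = 9.32e-05; 0.95 and 0.85 with the 2 scalings). In 093 it was at 3.67, 4.53 and 6.19 FPKM without cold and 9.30, 9.89 and 8.16 under cold, a change of 0.82. Phvul.005G081600, on the same pathway, was lower under cold in each cold library than in any control, with changes of -0.84 and -0.96 that missed the fold. Phvul.010G113266, whose name lies next to that of Phvul.010G113600 and which has the same annotation, stayed between 0.0739 and 1.41 FPKM. Reads of such near neighbours can be split between them by the counting, so single values of close copies are uncertain.

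Phvul.005G132400, annotated to synthesis of the glycosylphosphatidylinositol anchor, fell in 093 from 5.04, 4.62 and 6.73 to 2.03, 1.90 and 2.02 FPKM (-1.10, adjusted p = 8.1e-05). Without 093 control library 3 its change was -0.96. In 120 it was at 4.23, 4.49 and 5.04 FPKM without cold and 2.56, 1.68 and 1.62 under cold, again without overlap, and the change of -0.93 was not called. The difference of these responses was 0.17 (SE 0.23, adjusted p = 0.61).

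Of 3 further transferases without a pathway entry, Phvul.007G141200 rose in both varieties and Phvul.003G277200 fell in 120. Phvul.007G141200 carries annotations to the Golgi and to pollen tube development. It went from 2.70, 2.42 and 3.81 to 12.7, 12.1 and 13.0 FPKM in 093 (1.79, adjusted p = 7.09e-07). In 120 it went from 3.56, 3.47 and 3.84 to 12.7, 11.7 and 9.58 FPKM (1.41, adjusted p = 5.38e-06). Control and cold libraries did not overlap in either variety. Phvul.009G060600, with a like Golgi annotation, had changes of 0.45 and 0.43 and no call.

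Phvul.003G277200 was listed at 0 in all 6 cold libraries. Without cold it was at 0.859, 0.454 and 0.834 FPKM in 093 and at 2.01, 3.30 and 2.79 FPKM in 120. It fell in 120 (-1.87, adjusted p = 5.95e-07), while the change of -0.77 in 093 was too small for a call. No fold is given against groups listed at 0. Phvul.003G277200 passed the level filter only with the 120 control libraries, so a high level there was part of its selection.

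The 5 members annotated as sterol glucosyltransferases, whose products are membrane steryl glucosides, gave 1 fall and no rise. Phvul.010G013800 fell in 120 from 19.0, 20.5 and 22.0 to 9.30, 8.43 and 7.31 FPKM (-1.20, adjusted p = 4.02e-06). In 093 it was at 13.2, 11.7 and 14.3 FPKM without cold and 9.65, 10.5 and 11.3 under cold, a change of -0.29. The difference of -0.91 had an adjusted p of 0.00286 but missed the fold. No member of the group was called in 093, where 3 of 5 had an unadjusted p under 0.05, beside 10991 of the 14716 tested loci.

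The other 4 of this annotation ranged from -0.82 to 0.75 in 120 and from -0.51 to 0.46 in 093. MSTRG.7273, which joins 2 gene names of which one is described as a transmembrane receptor, was at 18.2 ± 4.13 and 12.3 ± 0.888 FPKM in 093 control and cold, and at 24.6 ± 3.97 and 17.2 ± 0.896 FPKM in 120. Phvul.007G080800 was the only one of the 5 above its controls in every cold library of both varieties, at 5.01 ± 0.569 and 7.23 ± 0.237 FPKM in 093 and 5.71 ± 0.997 and 10.3 ± 1.75 FPKM in 120. Its change in 093 was -0.01 after median-ratio scaling.

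Among the small-molecule members, 7 shared an annotation of glucosinolate and tryptophan metabolism and are called the family 74 type here. Descriptions name 3 of them 74F1 and 1 of them 74F2, and the Arabidopsis enzymes of these names glucosylate salicylic acid, a defence hormone. In 120 cold lowered 5 of the 7 and raised none, with an unadjusted p under 0.05 for all 7. Of the 14716 tested loci, 10745 had such a p there. In 093 it lowered 3 and raised 2.

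Phvul.004G024500 was the highest of them. With the pseudocount of 1 it had the largest fall of any member in both varieties, which no longer held with a pseudocount of 0.1, where low members such as MSTRG.909 (-5.70 in 120) and Phvul.007G039500 (-3.89 in 093) fell further. It was at 32.6, 31.3 and 32.7 FPKM in 093 control and at 1.47, 2.96 and 3.16 in 093 cold. In 120 it was at 43.8, 44.7 and 39.5 FPKM without cold and at 2.54, 3.55 and 2.60 under cold. Control libraries were tightly grouped, and every cold library was far below them. The log2 changes of -3.27 and -3.49 (SE 0.19 each) had adjusted p-values of 3.21e-08 and 1.96e-08. Their difference was -0.22 (SE 0.26) and had no stable sign, at 0.03 after median-ratio scaling.

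Phvul.004G086500, described as 74F2, fell in 093 from 8.02, 4.94 and 4.81 to 1.26, 0.249 and 0.459 FPKM (-2.08, adjusted p = 0.0022). In 120 it fell from 7.52, 0.820 and 4.53 to 0.107, 0.163 and 1.08 FPKM (-1.67, adjusted p = 0.00893). There the groups overlapped, since control library 2 was below cold library 3.

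Phvul.004G031100, a 74F1 by description, was at 0.836, 1.12 and 4.25 FPKM in 093 control and 0.492, 0.0511 and 0.395 in 093 cold. Its 120 libraries were at 9.92, 10.4 and 12.4 FPKM without cold and 1.02, 1.11 and 0.163 under cold. The 120 control libraries thus stood above all other libraries. It fell in both varieties, by 1.07 on the log2 scale in 093 and by 2.80 in 120 (adjusted p = 0.018 and 2.41e-05). The call in 093 rests on control library 3, since the change was -0.60 without it (adjusted p = 0.0598), and it was also lost without cold library 2 (-0.92, adjusted p = 0.0657).

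Its neighbours by name, Phvul.004G030400 and Phvul.004G031000, fell in 120. Phvul.004G030400, also described as 74F1, was at 4.50, 49.1 and 3.40 FPKM in 120 control and at 0, 0.436 and 0.392 in 120 cold. In 093 all 6 libraries were under 1 FPKM, at 0.427 ± 0.427 without cold and 0.448 ± 0.416 under cold. The fall of 3.08 on the log2 scale in 120 became 1.97, still called, without control library 2 (adjusted p = 0.00207 with it and 0.000148 without it). Phvul.004G031000 fell in 120 from 2.43, 3.64 and 1.13 to 0, 0.333 and 0.311 FPKM (-1.43, adjusted p = 0.00607). Both passed the level filter only with the 120 control libraries.

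The 2 other members of the type rose in 093. Phvul.009G115200, a further 74F1 by description, went from 0.801, 1.10 and 0.897 to 3.08, 3.61 and 4.24 FPKM there (1.26, adjusted p = 0.000138; 0.90 and 0.87 with the 2 scalings). Variety 120 had it at 1.28, 2.69 and 1.56 FPKM without cold and at 1.10, 0.502 and 0.586 under cold. Cold libraries were thus all higher in 093 and all lower in 120. Phvul.008G257200 rose in 093 from 0.180, 0.0260 and 0.126 to 2.83, 1.53 and 2.06 FPKM (1.48, adjusted p = 3.92e-06). Its 120 libraries were at 0.253, 0.353 and 0.271 FPKM without cold and 0.917, 1.001 and 0.848 under cold, a change of 0.57. Phvul.008G257200 passed the level filter only with the 093 cold libraries.

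**Figure D4:**
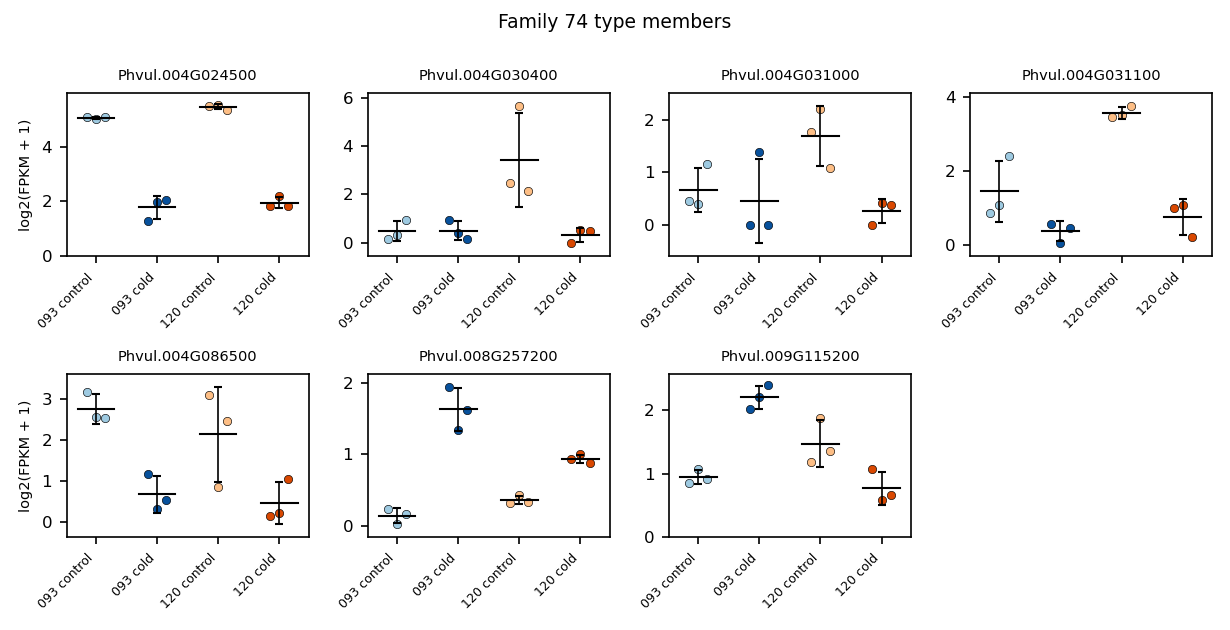
The 7 family 74 type members by group, as log2(FPKM + 1) per library (points), with the mean (line) and SD (bars) of the 3 libraries; vertical axes differ between panels. Phvul.004G024500 drops from above 30 FPKM to between 1.47 and 3.55 FPKM in both varieties, whereas the cold points of Phvul.009G115200 lie above the controls in 093 and below them in 120.

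Both members annotated to phenylpropanoid synthesis fell in 093, and 1 of them fell in 120. Phvul.009G174200, whose annotation is that of a sinapate glucosyltransferase, an enzyme that makes precursors of leaf sinapate esters, went from 9.61, 11.5 and 10.7 to 1.77, 1.80 and 2.16 FPKM in 093 (-1.99, adjusted p = 1.79e-06). In 120 it went from 15.5, 10.3 and 16.4 to 1.88, 2.38 and 1.33 FPKM (-2.39, adjusted p = 4.27e-07). Each cold library was less than the lowest control library. Phvul.007G039500, described as 84B1, the Arabidopsis enzyme of which glucosylates the auxin indole-3-acetic acid, was at 1.48, 1.61 and 1.11 FPKM in 093 control and was listed at 0 in all cold libraries of both varieties. It fell in 093 (-1.26, adjusted p = 3.01e-06), having passed the level filter only with the 093 control libraries. In 120 control it was only at 0, 0.223 and 0.123 FPKM. Its neighbour by name MSTRG.7561, also described as 84B1 and not a member, was at 23.8 FPKM in 093 control library 1. That neighbour was listed at 0 in the other libraries of 093, so the split of reads between these copies is uncertain.

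The 7 members with zeatin synthesis as their only annotated pathway, 5 of them described as 85A2 or 85A3, are called the family 85 type here. MSTRG.909, described as 73C2, carries this annotation beside another and is given with family 73. Zeatin is a cytokinin, and family 85 in other plants includes enzymes for cytokinin and for cyanogenic compounds. Among the 7 of the family 85 type, 1 fell in both varieties and 1 rose in 120. Phvul.011G158500, described as 85A3, was at 21.4, 22.5 and 3.36 FPKM in 093 control and at 0.686, 0.914 and 0.615 in 093 cold. Variety 120 had it at 19.7, 38.7 and 0.267 FPKM without cold and 0.465, 0.279 and 1.09 under cold. Control library 3 was low in each variety, and in 120 it lay below all cold libraries.

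The falls of Phvul.011G158500 were -2.93 in 093 and -2.68 in 120 (SE 1.04, adjusted p = 0.0235 and 0.0359). They were lost without any of 4 libraries in 093, with adjusted p between 0.0528 and 0.0823, and without any of 5 in 120, with adjusted p between 0.0552 and 0.158. Without 120 control library 3 the change was -4.18 (adjusted p = 0.000141), and without control library 2 it was -1.70 (adjusted p = 0.158). Phvul.008G174700, described as 85A2, rose in 120 from 0.974, 0 and 0.236 to 1.86, 3.93 and 0.999 FPKM (1.18, adjusted p = 0.00884). Its change was 0.96 without control library 2 and 0.83 without cold library 2. Phvul.008G174700 passed the level filter only with the 120 cold libraries, so a high level there was part of its selection.

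For 2 further 85A2 members, single libraries made up the group's level. MSTRG.9472 was at 20.9 FPKM in 093 cold library 3 beside 0.877 and 1.47 in the others, and at 7.22 FPKM in 120 cold library 2 beside 0.265 and 0.407. Phvul.006G205700 was at 12.5 FPKM in 093 cold library 1 beside 0.210 and 0.211, and at 22.2 FPKM in 120 control library 2 beside 0.104 and 0.334. Neither passed the test in any comparison. MSTRG.9472 joins 2 gene names, and Phvul.006G205700 has a pair of members with adjoining names, so their reads may be split among copies. The remaining 3 of the type, Phvul.002G146100, Phvul.006G205500 and Phvul.006G205600, stayed under 2 FPKM in all 12 libraries and were called in neither cold comparison.

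The 4 numbered family 73 members gave 3 falls in 120, where 18.6% of all tested loci fell. MSTRG.909 and Phvul.008G090700 passed the level filter only with the 120 control libraries, so a high level there was part of their selection. In Arabidopsis, family 73C enzymes act on cytokinins and brassinosteroids, and 73B3 and 73B5 respond to pathogens. Phvul.001G182500, described as 73C2, was at 11.3, 93.4 and 12.6 FPKM in 120 control and at 3.05, 5.04 and 3.81 in 120 cold. In 093 it was at 3.18, 1.74 and 3.00 FPKM without cold and 4.32, 5.10 and 2.75 under cold. Only the 120 controls stood out. The fall in 120 was -2.36 (adjusted p = 0.00443) and -1.40 without control library 2 (adjusted p = 0.000712).

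MSTRG.909, another 73C2 whose entry joins 2 neighbouring names, was at 8.84, 2.45 and 7.04 FPKM in 120 control and at 0.0169, 0 and 0 in 120 cold (-2.69, adjusted p = 0.000936). In 093 it was at 4.11 FPKM in control library 1 and listed at 0 in the other 5 libraries. Phvul.008G090700, described as 73B3, was at 1.11, 1.28 and 1.10 FPKM in 120 control and listed at 0 in all cold libraries of both varieties (-1.11 in 120, adjusted p = 4.26e-06). Its 093 control values were 0.169, 0.220 and 0.409 FPKM. Phvul.007G020600, described as 73B5, was not called in either cold comparison, at 2.11 ± 0.406 and 0.962 ± 0.228 FPKM in 093 and 0.0111 ± 0.00959 and 0.123 ± 0.0578 in 120.

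The 4 members annotated to anthocyanin synthesis, in which glucosylation stabilises the pigment, gave 1 fall in 093 and 2 in 120. Phvul.010G037600 fell in 093 from 5.61, 6.14 and 7.88 to 0.702, 1.22 and 0.458 FPKM (-2.08, adjusted p = 1.1e-05). Already without cold it was low in 120, at 0.566, 0.677 and 1.49 FPKM, and was at 0.0303, 0.695 and 0.467 under cold. The 093 controls stood above all other libraries, and only with them did this member pass the level filter. Phvul.005G093500 fell in 120 from 7.67, 9.61 and 9.52 to 3.43, 3.86 and 4.05 FPKM (-1.05, adjusted p = 0.000282). Without 120 cold library 1 that change was -0.998, just short of the required fold. Its 093 libraries were at 3.09 ± 0.967 and 2.89 ± 0.524 FPKM.

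MSTRG.10061, described as 71B6, the Arabidopsis enzyme of which glucosylates the stress hormone abscisic acid, went opposite ways by its values. It was at 0.248, 0.162 and 0.559 FPKM in 093 control and 2.02, 1.07 and 1.67 in 093 cold. Its 120 libraries were at 0.944, 0.0378 and 3.91 FPKM without cold and 0.0414, 0.0405 and 0.0278 under cold. The 3 cold libraries of 093 were above their controls, whereas in 120 the groups overlapped. The change of 0.96 in 093 missed both thresholds (adjusted p = 0.0567), and that of -1.05 in 120 was called (adjusted p = 0.041). The call in 120 was lost without any of 5 libraries, and the change was -0.45 without control library 3 (adjusted p = 0.148). Phvul.011G138600, the last of the 4, was listed at 0 in 9 of the 12 libraries.

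Of the 5 members that share an annotation of sphingolipid and ether lipid metabolism, 1 is described as 76E11, and they are called the family 76 type here. They gave 1 rise in 093, and 3 rises and 1 fall in 120. MSTRG.4761 joins 7 gene names that lie close together on one chromosome by their numbering. It rose from 3.03, 0.930 and 2.34 to 14.8, 14.2 and 16.9 FPKM in 093 (2.46, adjusted p = 5.72e-06), the largest rise of a member with the pseudocount of 1. With a pseudocount of 0.1, Phvul.008G257200 had a larger one there, at 3.44. In 120 it rose from 8.68, 4.75 and 6.85 to 17.5, 23.6 and 16.5 FPKM (1.40, adjusted p = 0.000573). The single genes behind this entry cannot be told apart.

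Phvul.011G060300, described as 76E11, rose in 120 from 0.0149, 0.101 and 0 to 2.98, 1.68 and 1.47 FPKM (1.52, adjusted p = 8.86e-06). Its 093 libraries were at 0, 0.0329 and 0.126 FPKM without cold and at 0.308, 0.476 and 0.512 under cold, a change of 0.44. Phvul.011G060300 passed the level filter only with the 120 cold libraries. Phvul.008G035800 rose in 120 from 3.75, 2.73 and 2.89 to 11.3, 8.88 and 7.60 FPKM (1.31, adjusted p = 0.000364). Its 093 libraries were at 3.18 ± 1.52 and 4.82 ± 0.782 FPKM with overlapping libraries.

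Phvul.008G034300 fell in 120 from 3.76, 37.6 and 2.50 to 0.422, 1.20 and 0.662 FPKM (-2.32, adjusted p = 0.0156). The change was -1.24 without control library 2 (adjusted p = 0.0317), and the call was lost in a fit of the 2 groups of 120 alone (adjusted p = 0.0589). Its neighbour by name, Phvul.008G034100, was not called, with changes of 0.03 and 0.46.

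The last 3 members share no annotated pathway. Phvul.001G238900 rose from 3.88, 5.03 and 4.79 to 12.6, 13.1 and 12.9 FPKM in 093 (1.32, adjusted p = 0.000446). In 120 it rose from 1.86, 3.36 and 2.08 to 6.54, 10.5 and 4.43 FPKM (1.21, adjusted p = 0.000905). The change was 0.84 and 0.91 in 093 with the 2 scalings. In 120 it was 0.94 after quantile normalization and 0.92 without cold library 2. Each of these missed the fold.

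Phvul.004G104100, described as 88A1 and annotated to isoflavonoid synthesis, a pathway typical of legumes, was at 0, 1.50 and 1.47 FPKM in 093 control and 4.12, 4.19 and 4.29 in 093 cold. It rose in 093 (1.50, adjusted p = 0.0293), but the call was lost without any of 4 libraries, with adjusted p between 0.0597 and 0.124, and with either scaling. Variety 120 had it at 0.948, 1.64 and 1.55 FPKM without cold and at 0, 0 and 4.25 under cold. Phvul.008G140500 rose in 120, where it was listed at 0 in all controls and stood at 2.03, 4.19 and 0 FPKM under cold (1.33, adjusted p = 0.0295). That call was lost without any of 5 libraries, with adjusted p between 0.0616 and 0.131, and the change was 0.80 without cold library 2. Phvul.008G140500 also passed the level filter only with the 120 cold libraries, so a high level there was part of its selection.

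The difference between the 2 cold responses was called for 10 of the 50 members, which is 20% beside 19.6% of all tested loci. The response of 120 was lower than that of 093 for 7 members and higher for 3 (13.1% and 6.50% of all tested loci). With median-ratio scaling it was lower for 6 and higher for 5, and with quantile normalization lower for 5 and higher for 4. Among the 33 members that did not depend on 1 group for the filter, it was lower for 5 and higher for 0 by limma. Of these 33, 12 had an unadjusted p under 0.05, beside 6450 of the 14716 tested loci. The largest was Phvul.004G030400, at -3.10 (SE 1.003, adjusted p = 0.0346), followed by Phvul.001G182500 at -2.83 (SE 0.86, adjusted p = 0.0274). Without 120 control library 2 these were -1.99 and -1.87, with adjusted p of 0.00457 and 0.0035. Both calls were lost on leaving out other libraries, 7 for the first (adjusted p between 0.0523 and 0.0766) and 4 for the second (between 0.0561 and 0.0626).

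MSTRG.10061 had a difference of -2.01 (SE 0.59, adjusted p = 0.0235), Phvul.009G115200 one of -1.96 (SE 0.29, adjusted p = 0.000554), and Phvul.004G031100 one of -1.72 (SE 0.51, adjusted p = 0.0238). The call for MSTRG.10061 was lost without 093 control library 2 or cold library 1 (adjusted p = 0.0521 and 0.0546). That of Phvul.004G031100 was lost without any of 5 libraries (adjusted p between 0.0523 and 0.0579). It was also lost with a pseudocount of 0.1, where the difference was -1.68 (adjusted p = 0.241). Phvul.003G277200 differed by -1.10 (adjusted p = 0.00327), and by -0.99 without 093 control library 2 and -0.98 without 120 control library 2. The 3 higher in 120 had all passed the filter only through the group in which they were high. Phvul.010G037600 differed by 1.63 (SE 0.35, adjusted p = 0.00476), Phvul.007G039500 by 1.10 (adjusted p = 0.00103), and Phvul.011G060300 by 1.08 (adjusted p = 0.00684). The call of Phvul.010G037600 was lost with a pseudocount of 0.1, where the difference was 1.70 (adjusted p = 0.1625). Phvul.011G060300 was at 0.87 without 120 cold library 1.

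Of these 10 members, 6 also had a called difference between the varieties without cold. Phvul.004G030400, Phvul.001G182500, Phvul.004G031100 and Phvul.003G277200 were higher in 120 than in 093 without cold. Phvul.010G037600 and Phvul.007G039500 were higher in 093. Since the comparison without cold uses the same control libraries as the difference of responses, the 2 are not independent. For Phvul.009G115200, MSTRG.10061 and Phvul.011G060300 the varieties instead had a called difference under cold. Phvul.003G277200 and Phvul.007G039500 were listed at 0 in all 6 cold libraries, and each had passed the filter through 1 control group. Their differences of responses therefore restate their differences without cold with the sign turned and are no separate test of the response. The call of Phvul.009G115200 held under every alternative run.

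**Figure D5:**
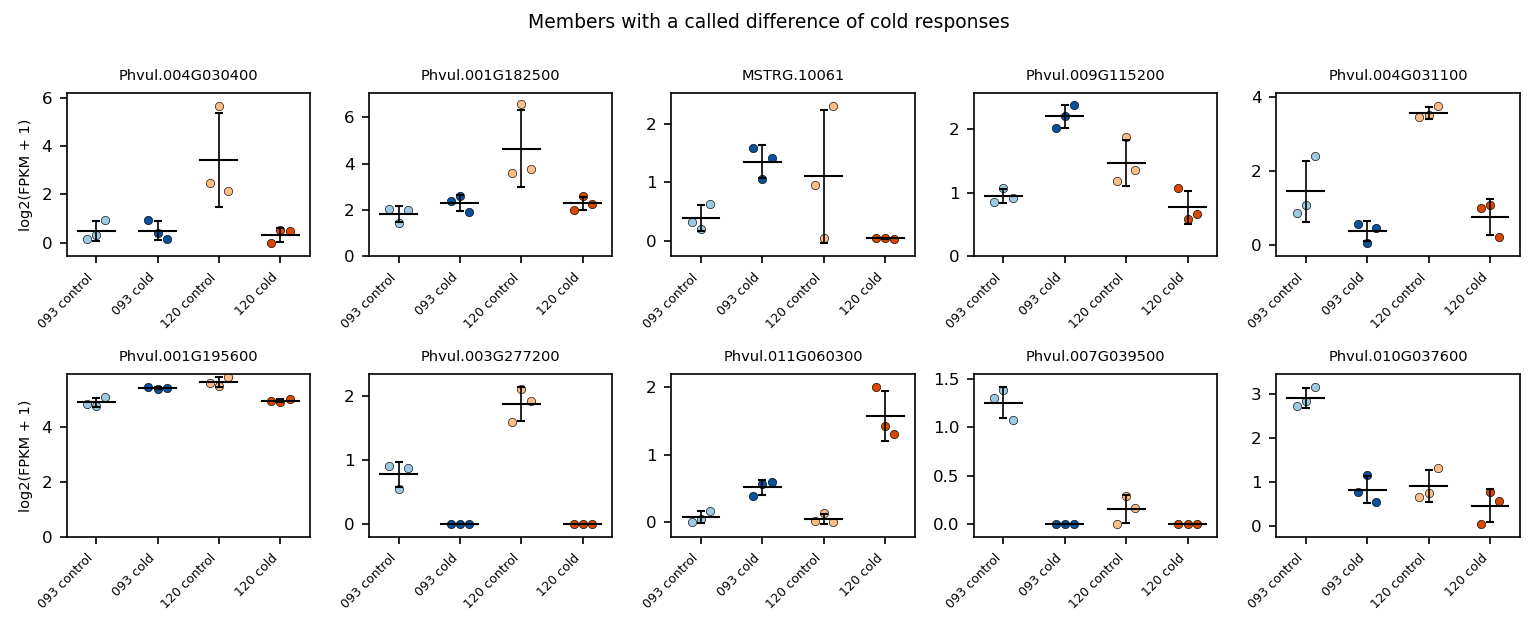
The 10 members with a called difference of cold responses, as log2(FPKM + 1) per library (points) with mean (line) and SD (bars) of 3 libraries; vertical axes differ between panels. Control library 2 of 120 stands far above its group for Phvul.004G030400 (49.1 FPKM) and Phvul.001G182500 (93.4 FPKM), and the points of Phvul.001G195600 span the narrowest range.

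Without cold, 8 members were higher in 120 than in 093 and 4 were lower, against 6.34% and 4.44% of all tested loci (10.8% in either direction). The libraries of the varieties did not overlap for 27 members (54%), 17 of them higher and 10 lower in 120, against 39.7% of all tested loci (25.1% and 14.7%). Of the 8 and 4, the 33 members that did not depend on 1 group for the filter gave 5 and 0. Those higher in 120 were Phvul.004G030400 (log2 difference 2.94), Phvul.001G182500 (2.81), Phvul.004G031100 (2.11), MSTRG.909 (1.91), MSTRG.4761 (1.36), Phvul.005G093500 (1.30), Phvul.003G277200 (1.10) and the starch synthase Phvul.010G119300 (1.03). Without 120 control library 2 the first 2 were 1.82 and 1.85, still called. A fit of the 2 control groups alone lost Phvul.004G030400 (adjusted p = 0.0766), Phvul.001G182500 (0.057), MSTRG.909 (0.127) and Phvul.010G119300 (0.0557), which left 4 of the 8.

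Of these, 3 calls were lost on leaving out a library. MSTRG.909 was at 1.52 to 1.76 with adjusted p between 0.078 and 0.0993 without any of 4 libraries, and its groups overlapped. Phvul.003G277200 was at 0.99 and 0.98 without library 2 of 093 control or of 120 control. Phvul.010G119300 was at 0.76 without 093 control library 2 and at 0.92 without 120 control library 3. It was also at 0.90 with median-ratio scaling and at 0.65 with quantile normalization, short of the fold. Its 3 control libraries of 120 were above the 3 of 093, at 333 or more against 266 FPKM or less.

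The 4 members lower in 120 without cold all owed their passing of the filter to 093 control. They were Phvul.010G037600 (-2.001, adjusted p = 0.000123), Phvul.007G020600 described as 73B5 (-1.61, adjusted p = 8.49e-06), Phvul.006G205600 (-1.33, adjusted p = 0.00403) and Phvul.007G039500 (-1.10, adjusted p = 7.71e-05). Phvul.007G020600 was at 2.57, 1.83 and 1.93 FPKM in 093 control and 0.0161, 0.0171 and 0 in 120 control. Phvul.006G205600, of the family 85 type, was at 1.91, 1.46 and 1.84 FPKM in 093 control and 0.213, 0.0348 and 0.0151 in 120 control. For both, every library of 093 control was above 1 FPKM and every one of 120 control far below.

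Under cold the varieties differed in 4 of the 50 members (8%, beside 12.6% of all tested loci), 1 higher and 3 lower in 120 (5.62% and 7.03% of all tested loci). The libraries did not overlap for 13 members (26%), 4 higher and 9 lower in 120, against 53.4% of all tested loci (19.8% and 33.6%). Phvul.009G115200 was lower in 120 by 1.43 on the log2 scale (adjusted p = 0.00029), and this call held under each alternative setting run. Phvul.004G104100 (-1.58, adjusted p = 0.0459) and MSTRG.10061 (-1.30, adjusted p = 0.0315) were lower too. Phvul.011G060300 was higher (1.06, adjusted p = 0.000808). The calls of Phvul.004G104100 and MSTRG.10061 were each lost without any of 5 libraries (adjusted p between 0.0978 and 0.169, and between 0.0602 and 0.0965), and that of Phvul.011G060300 without 093 cold library 1 (0.99) or 120 cold library 1 (0.85). Without 120 cold library 3, the difference of Phvul.004G104100 was -2.38 (adjusted p = 0.000485). Both scalings left 1 member lower and 1 higher.

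Gene lists around the members were matched by description and read beside the shares of all tested loci given above. With cold these were 33.0% higher and 15.2% lower in 093, and 27.8% and 18.6% in 120. UDP-sugars are the donors of these enzymes, and 10 of 13 loci for their supply were tested. Rises and falls numbered 5 and 1 in 093, and 4 and 2 in 120. The UDP-sugar pyrophosphorylase Phvul.009G130500 was at 9.68 ± 1.70 FPKM in 093 control and 37.7 ± 2.04 FPKM in 093 cold. Its 120 groups were at 11.6 ± 0.513 and 31.8 ± 2.50 FPKM, and it rose in both (log2 change 1.86 and 1.38). Sucrose synthases make UDP-glucose from sucrose, and of the 4 tested 3 rose in 093 and 1 in 120. Phvul.009G223800 rose in each variety, with 2.71 ± 0.774 FPKM in 093 control and 79.3 ± 3.46 FPKM in 093 cold, and with 2.90 ± 0.702 and 46.2 ± 13.3 FPKM in the 120 groups.

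Beta-glucosidases can remove the glucose again, and 23 of them were tested. Rises numbered 4 and falls 7 in 093, beside 3 and 7 in 120. Phvul.003G076700, described as beta glucosidase 46, fell in both, with 22.2 ± 3.38 FPKM in 093 control, 1.06 ± 0.192 in 093 cold, 19.1 ± 4.88 in 120 control and 0.929 ± 0.0873 in 120 cold. Phvul.002G102800, described as beta glucosidase 40, rose in both, with 3.77 ± 0.918 FPKM in 093 control, 82.4 ± 5.75 in 093 cold, 4.12 ± 1.38 in 120 control and 36.8 ± 4.90 in 120 cold.

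Nucleotide-sugar transporters bring UDP-sugars into the Golgi and endoplasmic reticulum, and MATE efflux carriers include some that carry glucosides into the vacuole. Of 28 tested transporters, 14 rose in 093 and 12 in 120, with 1 fall in each. Median-ratio scaling left 10 rises and 2 falls in 093, and 12 and 1 in 120. Of 22 tested MATE carriers, 9 rose in 093 and 11 in 120, with 3 and 4 falls, and median-ratio scaling gave 10 falls in 093. The median log2 change in 093 and 120 was 0.85 and 0.72 for UDP-sugar supply, -0.02 and -0.35 for beta-glucosidases, and -0.09 and 0.76 for MATE carriers. For nucleotide-sugar transporters it was 1.001 and 0.76. With median-ratio scaling the medians in 093 were 0.34, -0.41, -0.56 and 0.59 in the same order. Sucrose synthases had 1.56 and 0.19, and the second value was -0.03 after quantile normalization.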

How the data were processed

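The authors deposited 1 table of FPKM per locus with a column for each of the 12 libraries, per the file headers. Per the labels, mRNA was selected with oligo(dT) and stranded libraries were sequenced as read pairs. Per the submitters' processing notes, HISAT2 2.0.4, StringTie 1.3.4d and cutadapt 1.9 were used, and the genome build is not given in the sources used here. Read counts were not analysed here, so the depth is known only in relative terms and no counting interval is given. Columns were tied to samples by their names, with 0 value columns left over. No gene name matched the RefSeq table at hand, so no sequence or position is shown.

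Loci with at least 1 FPKM in 3 or more libraries (14716) were fitted in R 4.3.3 with limma 3.58.1, with variance trend, on log2(FPKM + 1), with 1 mean per group over all 12 libraries and 5 contrasts. Two-sided p-values received Benjamini-Hochberg adjustment within each contrast. The procedure was tested on simulated data. Alternatives were a pseudocount of 0.1, no level filter, median-ratio scaling, quantile normalization, no trend, only the groups compared, the replicate number as a block, and leaving out each library. A pseudocount of 1 understates the change of low loci.

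The members, gene lists and tests were chosen with earlier results of these data known. By rule, the text names the 6 members with the highest mean, the 5 called members with the largest rise and fall in each cold contrast, and the 5 with the largest called difference in each other contrast. It also names called members listed at 0 in a group, members whose description names an acceptor, hormone or tissue process, the 2 loci on each side of the filter, and the called member with the largest change of each numbered family. All other members and loci named were chosen after their values were seen. Role groups were formed from the table's descriptions and pathway entries after the levels were seen.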

Additional observations from a re-analysis of the deposited data

Results flagged for a closer look

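A cold response that differed between the varieties, by the test of the difference itself in limma, is listed for 10 members. The difference of log2 changes, 120 minus 093, was -3.10 for Phvul.004G030400, -2.83 for Phvul.001G182500, -2.01 for MSTRG.10061, -1.96 for Phvul.009G115200, -1.72 for Phvul.004G031100, -1.20 for Phvul.001G195600 and -1.10 for Phvul.003G277200. It was 1.08 for Phvul.011G060300, 1.10 for Phvul.007G039500 and 1.63 for Phvul.010G037600. These 10 are 20% of the members, and 19.6% of all tested loci had such a call. Phvul.004G030400, Phvul.003G277200, Phvul.007G039500, Phvul.010G037600 and Phvul.011G060300 passed the level filter only with the help of the group where their mean was highest. That group enters the comparison, so their values are partly tied to their selection. Among the 33 members that did not depend on 1 group for the filter, 5 were lower and 0 higher. The call of Phvul.009G115200 held under each alternative setting and each left-out library. Phvul.003G277200 and Phvul.007G039500 were listed at 0 in all cold libraries, so their values equal their differences without cold with the sign turned.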

How the results depend on the processing

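Of 71 member calls over the 5 comparisons, the number that held under every alternative was 10 of 18 for cold in 093, 18 of 27 for cold in 120, 2 of 10 for the difference of responses, 7 of 12 without cold and 1 of 4 under cold. No called direction was reversed. Counts of calls moved by more than 1.5 times as follows, and the cause was not tested. Rises in 093 went from 8 to 4 with median-ratio scaling and with quantile normalization, and rises in 120 from 9 to 5 with quantile normalization. Higher differences of responses went from 3 to 5 with median-ratio scaling. Members higher in 120 without cold went from 8 to 4 with only the groups compared, which leaves fewer libraries to estimate the spread. Members lower in 120 under cold went from 3 to 1 without the level filter, with median-ratio scaling and with quantile normalization. Leaving out 1 library gave 7 to 8 rises and 7 to 9 falls in 093, 6 to 9 and 16 to 18 in 120, 2 to 4 higher and 2 to 9 lower differences of responses, 5 to 8 higher and 4 to 5 lower without cold, and 0 to 2 higher and 1 to 3 lower under cold. The lowest count of lower differences came without 093 control library 2, and 4 remained in number without 093 cold library 1. The deviations of same-numbered libraries correlated between -0.08 and 0.05. With 3 libraries per group this cannot show whether libraries of one number shared a pot or batch. With the replicate number as a block no called member was lost, and the counts stayed within 1.5 times. Levels near 0 limit what can be compared, since 1 FPKM is close to the pseudocount.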
